A study of Danio rerio with 6 samples.

Results

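Wild-type whole kidney marrow of the adult zebrafish was described from its 3 libraries, which are all the wild-type libraries among the 6 of the series. The members were taken by their genotype label alone and no measured value was used to choose them. The choice of members and the gene lists used below were made with earlier results of these data known. The series itself asked how marrow of fish with 1 mutated copy of rad21a compares with wild type. That allele, rad21 nz171, carries a nonsense mutation in exon 8 of rad21a, a gene for a cohesin subunit, and the wild-type fish came from the same kind of cross, between heterozygous parents. Each wild-type library was RNA from the marrow of 3 adult fish pooled, called here pools 1, 2 and 3. The sources used here do not give the age and sex of the fish or the clutch they came from. Pooling leaves the spread between single fish unseen, and the 3 pools make 1 group, so all that follows is description with no test. The heterozygous libraries are not analysed here.

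Zebrafish have no blood-forming bone marrow. Blood is made in the kidney, where stem cells and maturing red cells, thrombocytes, granulocytes, macrophages and lymphocytes fill the space between nephrons and vessels, so a dissected whole kidney marrow carries kidney tubules, glomeruli, vessel walls and the steroid-making interrenal tissue with the blood cells. Fish red cells keep their nucleus and fish thrombocytes are whole nucleated cells, and both can carry RNA. The organ lies against the body wall near the gonads and the liver.

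The level of a gene was given as TPM, a length-corrected abundance that the authors scaled to the same total in each library, so that levels can be compared between genes. A gene was counted as detected at 1 TPM or more. Of 32057 gene identifiers, 16132, 16962 and 17201 were detected in pools 1, 2 and 3, 14681 in all 3 and 18903 in at least 1. TPM keeps no read depth, so depth is unknown. The lowest values of the table give pools 2 and 3 a relative scale of 0.805 and 1.06, with pool 1 set to 1. That scale is one of length-corrected reads, so it is neither a read depth nor a read count.

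The shares of egg and liver genes differed widely between the pools, and this was looked at before anything else. The source of these transcripts was not tested. Genes of a list of 48 egg and gonad genes held 0.0567%, 2.96% and 0.854% of the TPM of pools 1, 2 and 3. The liver list, 27 genes of secreted plasma proteins, lipid carriers and yolk proteins, held 2.42%, 0.0771% and 0.0489%. Pool 2 was thus high in egg transcripts, pool 3 stood between, and pool 1 was high in liver transcripts. The egg list averaged 0.455% without pool 2, against 1.29% with it, and the liver list averaged 0.0630% without pool 1, against 0.850% with it. Because of this, values are given pool by pool, and the shares of several lists are also given after egg, liver, globin and pool-high genes, the last of which differ at least 10-fold between pools, were taken out, which removed 35.4%, 27.4% and 20.3% of the TPM of the pools.

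The blood and kidney labels of the tissue held in all 3 pools. Globins, the neutrophil lysozyme lyz and the tubule gene fxyd2 were each among the 40 genes with the highest mean. Within pools 1, 2 and 3, lyz ranked 7, 2 and 4, and fxyd2 ranked 69, 43 and 30. Markers of thrombocytes, macrophages, B cells, T cells, podocytes and endothelium were detected in every pool. A fall in a list's share can come from fewer cells of a type or from less RNA in each, and bulk libraries cannot tell these apart. With a fixed total, a large class in one pool also lowers the TPM of all other genes there.

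**Figure D1:**
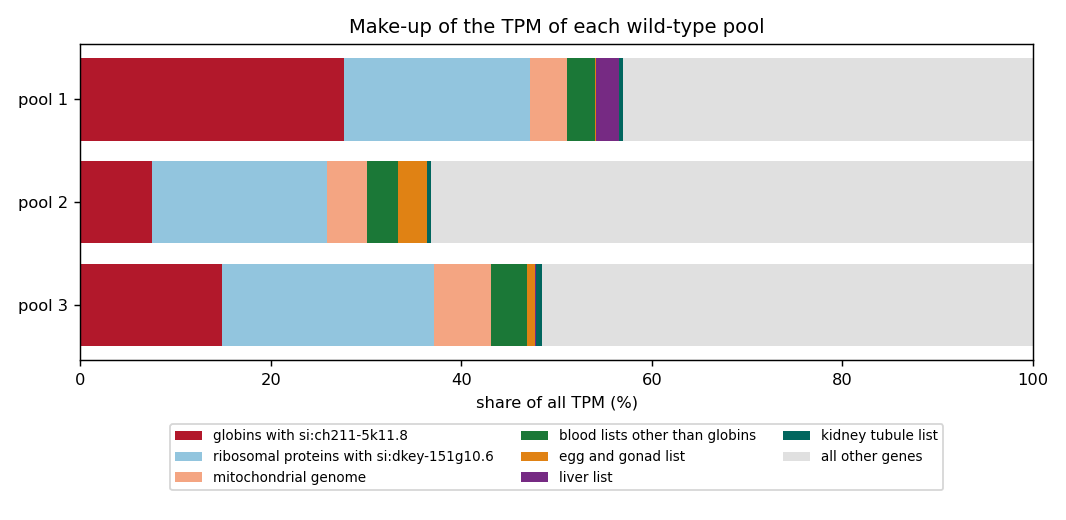
Make-up of the TPM of wild-type pools 1, 2 and 3. Each bar is 1 pool, its segments are shares of all TPM in percent, and the ribosomal segment includes si:dkey-151g10.6, and the globin segment is 27.7%, 7.53% and 14.9%, longest in pool 1 and shortest in pool 2.

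The most abundant transcripts were globins, ribosomal proteins, mitochondrial messages and lysozyme. Of the 40 genes with the highest mean, 17 encoded ribosomal proteins, 5 were on the globin list, 4 came from the mitochondrial genome, 2 were neutrophil genes, 1 was a kidney tubule gene and 11 were on none of these lists. TPM was concentrated in few genes. The 57 highest genes held 50% of the TPM in pool 1, against 138 in pool 2 and 97 in pool 3. The 10 highest held 31.6%, 13.7% and 21.03% in the same order. For 90% of the TPM, 2551, 3870 and 3665 genes were needed. Pool 1 was the most concentrated by all 3 measures and pool 2 the least. Of the 100 highest genes of each pool, 69 were shared by all 3.

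**Figure D2:**
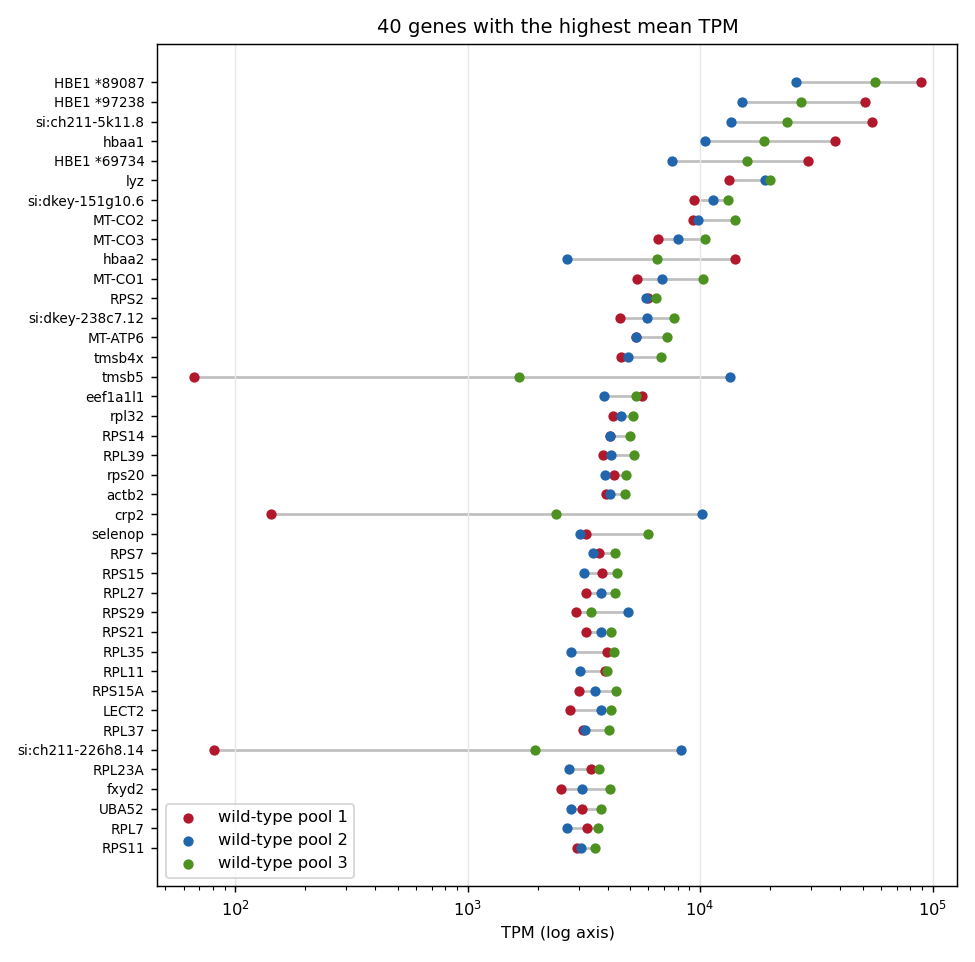
TPM in wild-type pools 1, 2 and 3 (log axis) of the 40 genes with the highest mean, each point 1 pool and each grey line the range, with HBE1 copies marked by the end of their identifier. Globins are highest in pool 1 and lowest in pool 2, ribosomal protein genes vary little, and tmsb5, crp2 and si:ch211-226h8.14 range from 66.4, 143 and 80.8 TPM in pool 1 to 13491, 10147 and 8259 in pool 2.

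Globins carry oxygen in red cells and were the highest transcripts of the tissue. The highest of all genes was HBE1 (ENSDARG00000089087), which stood at 89292, 25765 and 56618 TPM in pools 1, 2 and 3. The name table gives the human-style beta globin symbol HBE1 to 7 identifiers, and the next of them (ENSDARG00000097238) stood at 51098, 15170.2 and 27075 TPM. The adult alpha globin hbaa1 stood at 38224, 10548 and 18882 TPM. In all of these pool 1 was highest, pool 2 lowest and pool 3 between, and the range was over 3-fold. Another copy of HBE1 (ENSDARG00000069734) stood at 29085, 7582 and 15929 TPM and the second adult alpha globin, hbaa2, at 14129.8, 2680.0 and 6541 TPM. A further gene, si:ch211-5k11.8 (ENSDARG00000079078), stood at 54690.0, 13523 and 23759 TPM. RefSeq's annotation of assembly GRCz12tu gives hbaa1.2 among its synonyms, an alpha globin name, and it was not on the globin list.

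The globin list held 22.2%, 6.18% and 12.5% of the TPM in pools 1, 2 and 3, and 27.7%, 7.53% and 14.9% with si:ch211-5k11.8 added. The 3 highest HBE1 copies gave nearly all of the beta globin sum, since the other 4 summed to 9.40, 3.31 and 2.605 TPM. The alpha globins named as embryonic (hbae genes) summed to 185, 65.9 and 71.3 TPM, against 52353, 13228 and 25423 TPM for hbaa1 and hbaa2. Globins in this adult tissue were thus of the hbaa kind among alpha genes, with the embryonic kind far lower in every pool.

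While the globin total moved several-fold between pools, the balance among globins moved less. Summed alpha over summed beta globins was 0.310, 0.274 and 0.256 in pools 1, 2 and 3, and 0.633, 0.553 and 0.494 with si:ch211-5k11.8 counted as alpha. The ratio of si:ch211-5k11.8 to hbaa1 was 1.43, 1.28 and 1.26. Near-identical globin copies share reads, and the sources used here do not say how such reads were counted, so the split between copies is uncertain.

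Red cell genes other than globins moved with the globins. Their list of 38 genes held 0.559%, 0.189% and 0.297% of TPM, and 0.865%, 0.260% and 0.372% of what was left once globin, egg, liver and pool-high genes were taken out. hemgn, which encodes hemogen, a nuclear protein of maturing red cells, stood at 1137, 378 and 639 TPM. cahz, the red cell carbonic anhydrase of fish, stood at 1082, 297 and 486 TPM. Pool 1 was highest and pool 2 lowest in both. SLC4A1 (ENSDARG00000012881), the band 3 anion exchanger of the red cell membrane, stood at 805, 179.6 and 366 TPM. alas2, which catalyses the first step of haem synthesis in red cells, stood at 516, 146 and 230.5 TPM. Both followed the same order of pools.

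The genes of later steps of haem synthesis named here were lower than alas2 and ran in the same order. UROD stood at 193, 94.1 and 104 TPM and CPOX at 140.1, 59.5 and 71.3 TPM. The biliverdin reductase gene blvrb stood at 449, 182 and 319 TPM. Of the 33 red cell genes detected in all 3 pools, 30 were highest in pool 1. Among all 14681 genes detected in all 3 pools, 16.9% were highest in pool 1, 44.1% in pool 2 and 39.1% in pool 3. Proportions within the list held for some genes and not for others. cahz over alas2 was 2.097, 2.03 and 2.11, with a CV over the pools of 2.08%, and SLC4A1 over alas2 was 1.56, 1.23 and 1.59. Over the 32 other red cell genes detected in all pools, the CV of the ratio to alas2 ran from 2.08% to 56.5%, with a median of 22.5%. Pool 1 was also the pool with liver transcripts, and their part in the red cell genes was not tested. Taking out the liver list cannot show it, since that list shares no gene with the red cell list.

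Neutrophil genes were the most abundant blood genes after the globins. Their list of 29 genes held 1.93%, 2.61% and 2.88% of TPM in pools 1, 2 and 3, and its range did not overlap that of the globins. lyz, the lysozyme that zebrafish neutrophils and some macrophages make, stood at 13256, 18996 and 20008 TPM and was 70.4% of the list on average. Without lyz the list held 0.605%, 0.708% and 0.882%. LECT2 (ENSDARG00000033227), a secreted chemotactic protein, stood at 2757, 3748 and 4139.9 TPM. npsn, the astacin-type protease nephrosin, stood at 2394, 2466 and 3249.6 TPM. These 3 genes lay far above all others of the list, of which the next, nccrp1, stood at 140.5, 169 and 226 TPM.

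Oxidase, protease and regulator genes of neutrophils were lower. Of the NADPH oxidase that makes superoxide, cyba stood at 80.6, 68.96 and 147 TPM, cybb at 71.2, 61.95 and 93.7 TPM and NCF1 at 72.2, 62.3 and 113 TPM. MMP9, a matrix protease of neutrophil granules, stood at 40.1, 18.6 and 72.5 TPM. CEBPA, a regulator of granulocyte fate, stood at 44.3, 33.1 and 46.6 TPM. Pool 3 was highest in each of these 5 genes and pool 2 lowest, unlike lyz, in which pool 1 was lowest, but with the pools rescaled by median ratios, as described with the macrophage genes, CEBPA was highest in pool 1. il1b, an inflammatory cytokine, was near the threshold, at 1.48, 1.23 and 4.62 TPM. With egg, liver, globin and pool-high genes taken out, the list held 2.99%, 3.59% and 3.62%, with pool 1 lowest. Without lyz the list held 0.937%, 0.976% and 1.11% of the same remainder, again lowest in pool 1 and highest in pool 3. LECT2 (ENSDARG00000033227) and npsn led that sum, and most single genes had another order. Of 26 neutrophil genes detected in all pools, 15 were lowest in pool 2 and 11 in pool 1 as deposited. After rescaling, 21 were lowest in pool 2 and 5 in pool 1. Over all genes, 37.4% were lowest in pool 2 as deposited and 42.1% after rescaling. mpx, the classical neutrophil peroxidase marker of zebrafish, matched no symbol of the name table and is not analysed here.

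Macrophage genes were lower in sum than neutrophil genes. Their list of 37 genes held 0.210%, 0.251% and 0.327% of TPM, and neutrophil TPM over macrophage TPM was 9.20, 10.4 and 8.81. LGMN, the lysosomal protease legumain, stood at 462, 462 and 724 TPM. marco, a scavenger receptor, stood at 202, 207 and 347 TPM, and cd68, a lysosomal membrane protein, at 190.5, 123 and 176 TPM. Legumain and marco were highest in pool 3, and cd68 in pool 1. The 3 chains of complement C1q summed to 283, 284 and 292 TPM as deposited, nearly the same in each pool. SPI1 (ENSDARG00000000767), the PU.1 regulator of myeloid cells, stood at 73.8, 65.00 and 92.6 TPM.

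Some macrophage markers were not alike between pools. MPEG1 (ENSDARG00000043093), one of the perforin-like genes used to mark macrophages, stood at 12.7, 11.9 and 132 TPM, high in pool 3 alone. A second copy (ENSDARG00000055290) stood at 33.6, 27.9 and 34.2 TPM and did not follow it. The third (ENSDARG00000078569) was listed at 0 in all pools. The cathepsin gene ctss2.1 stood at 89.5, 448 and 248 TPM, highest in pool 2. In MFAP4 (ENSDARG00000116066), of the fibrinogen-domain family used as macrophage markers in zebrafish, pool 2 stood alone, at 0.488, 115 and 1.76 TPM. Pool 2 held the most egg transcripts, and their part in ctss2.1 and this MFAP4 was not tested. Of 29 macrophage genes detected in all pools, 23 were highest in pool 3 by TPM as deposited, against 39.1% of all genes. But 15 were highest in pool 1 and 13 in pool 3 after each pool was rescaled by its median ratio to the others.

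That rescaling divides pools 1, 2 and 3 by 0.870, 1.03 and 1.11, so that the typical gene is level. After it, 36.5% of all genes were highest in pool 1, 44.3% in pool 2 and 19.1% in pool 3. As deposited these shares were 16.9%, 44.1% and 39.1%. Ribosomal protein genes turned with the rescaling: 56 of 80 were highest in pool 3 as deposited, and 64 were highest in pool 1 once rescaled. Red cell genes did not turn, with 32 of 33 highest in pool 1 after rescaling. Neutrophil genes did not turn either, with 25 of 26 highest in pool 3 as deposited and 22 after rescaling. Among lists described further on, 37 of 40 tubule genes and 17 of 20 thrombocyte genes were lowest in pool 2 both as deposited and after rescaling. Over all genes, 37.4% were lowest in pool 2 as deposited and 42.1% after rescaling. The feature was not particular to these lists. As deposited and after rescaling, pool 2 was lowest in 31 and 27 of 33 red cell genes and in 56 and 64 of 80 ribosomal protein genes. It was lowest in 20 and 23 of 25 endothelial genes, 13 and 12 of 14 stem and progenitor genes and 11 and 10 of 12 glomerulus genes. Lists that went the other way included egg genes, 2 and 2 of 29, division genes, 7 and 6 of 38, and B cell genes, 4 and 5 of 13.

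Genes of MHC class II presentation, which load peptides for T cells, held 0.176%, 0.144% and 0.171% of TPM. The invariant chain genes led the list, cd74a at 793, 634 and 775 TPM and cd74b at 626, 438 and 654 TPM, both lowest in pool 2. mhc2dab, a class II chain, stood at 196, 297 and 248 TPM, highest in pool 2. mhc2dga was at or near 0, at 0.0332, 0 and 0 TPM. The class II activator ciita was low, at 2.84, 1.95 and 3.94 TPM. ctsl.1, a cathepsin L gene, stood at 128, 13.9 and 1.57 TPM, high in the pool that held the liver transcripts, and the part of those transcripts in it was not tested.

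B cell and immunoglobulin genes held 0.0206%, 0.0282% and 0.0609% of TPM. The light chain constant gene igl1c3 stood at 59.99, 99.6 and 247 TPM and ighm, the heavy chain of IgM, at 40.2, 40.1 and 116 TPM. Pool 3 was highest in both, by more than 2-fold over each of the other pools. The partners of the B cell receptor, cd79a and cd79b, stood at 10.11, 17.2 and 23.2 TPM for the first and 4.37, 6.88 and 9.77 TPM for the second. Their ratio was 2.32, 2.49 and 2.38, so they moved together. blnk, an adaptor of that receptor, stood at 18.7, 8.72 and 39.1 TPM and the B cell regulator PAX5 at 0.651, 3.27 and 3.24 TPM. Of 13 B cell genes detected in all pools, 12 were highest in pool 3 as deposited and 11 after rescaling. Over all genes, 39.1% were highest in pool 3 as deposited and 19.1% after rescaling.

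T cell genes had the lowest share of the blood lists apart from the recombination genes, at 0.00698%, 0.00576% and 0.00631% of TPM. That share varied little between pools. The listed names trac, cd3d, cd3e and cd3g matched no symbol of the name table, so the share leaves those genes out. The T cell receptor beta constant gene trbc1 stood at 13.2, 12.6 and 10.9 TPM. il7r, the interleukin 7 receptor, stood at 4.403, 3.69 and 3.90 TPM, the kinase lck at 2.62, 1.55 and 2.42 TPM and cd4-1 at 3.60, 2.58 and 2.46 TPM. cd8a stood at 0.894, 1.38 and 0.677 TPM, near the detection threshold. Only 1 of 17 T cell genes detected in all pools, tagapa, ranged 2-fold or more, where 38.7% of all genes did. By level, 28.2% of genes with a mean of 1 to 3 TPM did, and 39.8% of those from 3 to 10 TPM. The need for 1 TPM in every pool limits the range of genes this low and leaves out cd8a. Of the recombination genes active in developing lymphocytes, RAG1 stood at 1.49, 1.77 and 2.38 TPM and RAG2 at 0.799, 0.8802 and 1.101 TPM.

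NK and cytotoxic genes held 0.0150%, 0.0153% and 0.0205% of TPM. Of the NK-lysin genes, which encode membrane-attacking peptides, nkl.4 stood at 56.9, 64.3 and 88.97 TPM and nkl.3 at 42.9, 25.9 and 57.9 TPM. nkl.2 stood at 17.7, 23.3 and 14.9 TPM and il2rb, an interleukin 2 receptor chain, at 15.4, 15.02 and 20.2 TPM. The granzyme gzmk stood at 2.71, 2.65 and 2.14 TPM and the perforin prf1.2 at 0.730, 0.673 and 1.61 TPM, close to the threshold. NK-lysins thus lay above the granzyme and the perforin in every pool. EOMES (ENSDARG00000006640), a T-box regulator, stood at 1.21, 10.5 and 4.19 TPM, highest in the pool with the most egg transcripts, and their part in it was not tested.

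Thrombocytes, the platelets of fish, had a list share of 0.0411%, 0.0265% and 0.0402%. PLEK, the platelet signalling protein pleckstrin, stood at 77.3, 69.6 and 133 TPM, and is made by other white cells too. tubb1, the tubulin of the platelet ring, stood at 51.99, 14.9 and 25.9 TPM. Of the subunits of the von Willebrand factor receptor, GP1BB stood at 32.6, 14.5 and 27.00 TPM and gp9 at 27.96, 9.67 and 18.1 TPM. itga2b, the integrin that marks thrombocytes, stood at 4.54, 2.96 and 7.84 TPM. tubb1, GP1BB and gp9 were highest in pool 1, and PLEK and itga2b in pool 3. Of 20 thrombocyte genes detected in all pools, 9 were highest in pool 1, 2 in pool 2 and 9 in pool 3 as deposited. After rescaling these counts were 12, 1 and 7. Over all genes the shares were 16.9%, 44.1% and 39.1% as deposited and 36.5%, 44.3% and 19.1% after rescaling. FN1 (ENSDARG00000006526), a fibronectin that liver also makes, stood at 29.1, 3.51 and 5.07 TPM, high in pool 1 with the liver transcripts, whose part in it was not tested.

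Stem and progenitor genes held 0.0313%, 0.0228% and 0.0376% of TPM. MYB, a regulator that blood stem cells need, stood at 36.5, 34.04 and 44.7 TPM. TAL1 stood at 36.2, 16.5 and 26.2 TPM and LMO2, its partner in a complex of blood regulators, at 23.6, 13.8 and 21.1 TPM. Both were lowest in pool 2. cd34 stood at 20.6, 15.3 and 23.1 TPM, FLI1 at 23.3, 15.7 and 26.1 TPM and GATA2 at 3.18, 2.83 and 4.21 TPM. CEBPB, at 132, 99.4 and 194 TPM, was 46.4% of the list on average and is used by myeloid cells as well. KIT (ENSDARG00000043317), the stem cell factor receptor, stood at 2.52, 1.25 and 2.01 TPM.

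**Figure D3:**
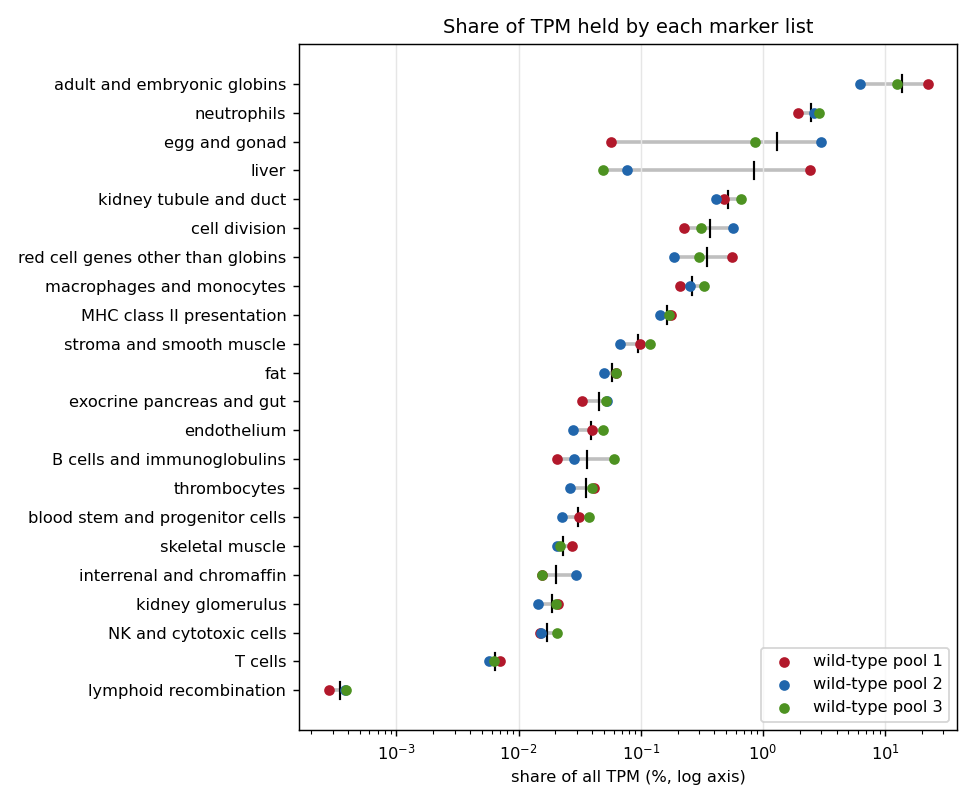
Share of all TPM (percent, log axis) held by each of 22 marker lists. Points are pools 1, 2 and 3, grey lines the range and black ticks the mean, which runs from 13.6% for globins to 0.000348% for recombination genes; the egg and liver lists have the widest ranges.

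Ordered by mean share, the lists ran from globins and neutrophils through egg, liver, kidney tubule, cell division, red cell and macrophage genes. The lowest were T cells and the recombination genes. Of 21 pairs of neighbours in that order, 15 had ranges over the pools that overlapped and 6 did not. Globins lay above neutrophils, macrophages above MHC class II genes, and NK genes above T cell genes without overlap. B cell, thrombocyte and stem cell lists, at means of 0.0366%, 0.0359% and 0.0306%, did not separate. Lists differ in how many genes they hold and how abundant those genes are in a cell, so a share of TPM is not a share of cells.

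Cell division genes held 0.228%, 0.564% and 0.309% of TPM, highest in pool 2. All 38 of the list were detected in every pool, and 29 were highest in pool 2, 27 after rescaling. Over all genes, 44.1% were highest in pool 2 as deposited and 44.3% after rescaling. The survivin gene birc5b stood at 5.59, 487 and 93.9 TPM and the cyclin CCNB2 at 7.69, 181 and 61.4 TPM. STMN1 (ENSDARG00000004169), the microtubule regulator stathmin, stood at 58.8, 676 and 228 TPM. Pool 1 was far below pool 2 in each, with pool 3 between, the order of the egg genes. Other division genes did not follow it. mki67, the proliferation antigen Ki-67, stood at 14.4, 10.4 and 11.5 TPM, TOP2A, a topoisomerase of dividing cells, at 23.3, 28.7 and 22.8 TPM, and CDK1, the mitotic kinase, at 67.4, 66.7 and 51.3 TPM.

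Division genes that shared a symbol did not always move alike. Both RRM2 genes were highest in pool 2, while the MCM6 genes differed. MCM6 (ENSDARG00000033231), a subunit of the replicative helicase, stood at 1.84, 93.7 and 38.5 TPM, and MCM6 (ENSDARG00000057683) at 31.4, 14.4 and 20.4 TPM. The first was highest in pool 2 and the second in pool 1. HMGB2 (ENSDARG00000029722), the highest of the list, stood at 696, 626 and 709 TPM and PCNA, the replication clamp, at 262, 460.4 and 316 TPM. With egg, liver, globin and pool-high genes taken out, which removed 4 of the list, its share was 0.341%, 0.580% and 0.335%. The part of egg RNA in the remaining excess of pool 2 was not tested.

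**Figure D4:**
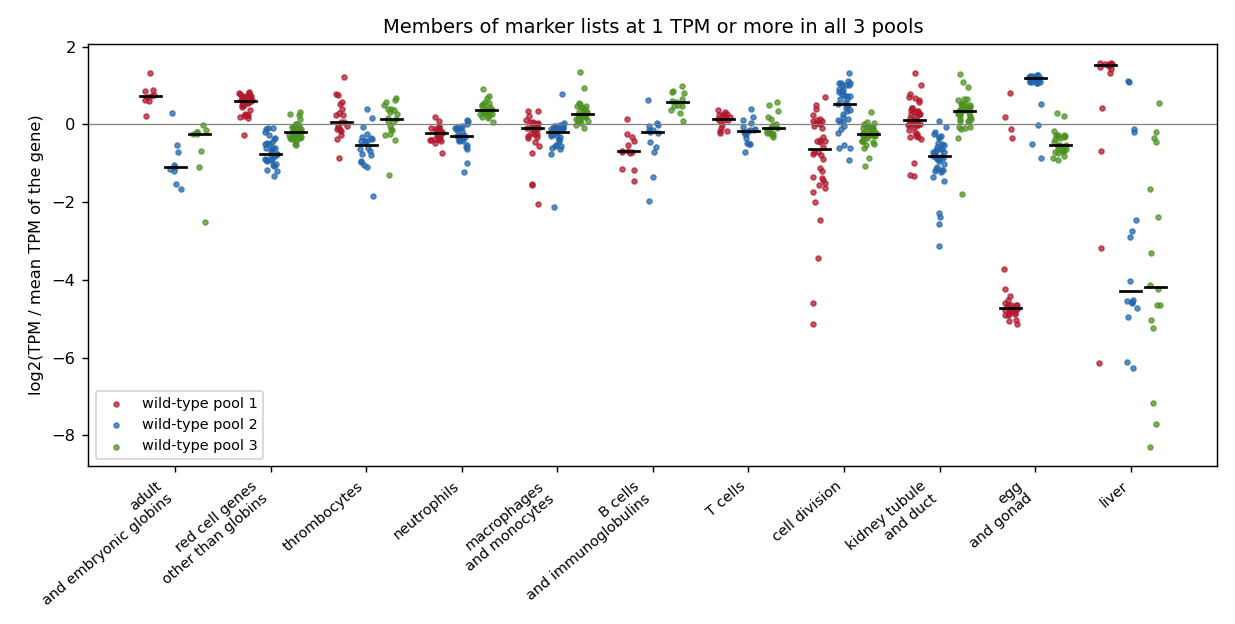
Levels of members of 11 marker lists relative to the gene's own mean over the 3 pools, as log2, for members at 1 TPM or more in all pools. Points are genes, colours pools and black bars the median of the genes; red cell and globin genes are highest in pool 1, neutrophil and B cell genes in pool 3, and egg and liver genes fall far apart.

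Kidney tubule genes held 0.478%, 0.411% and 0.656% of TPM, more than any blood list other than globins and neutrophils by mean. In pool 1 the red cell list was higher, at 0.559%. fxyd2, a small subunit of the sodium pump that kidney tubules use, stood at 2515, 3097 and 4085 TPM and was 62.8% of the list on average. Without fxyd2 the list held 0.226%, 0.101% and 0.248%. Its mean was then 0.192%, below the means of the red cell list, 0.348%, and the macrophage list, 0.263%, so its rank rested on fxyd2. CDH17, a cadherin of the zebrafish kidney duct and tubule, stood at 284, 155 and 406 TPM. Pool 2 was lowest without fxyd2, while fxyd2 itself was lowest in pool 1.

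Transporters of the proximal tubule were plain in each pool. SLC5A12, a lactate carrier, stood at 245, 109 and 253 TPM. SLC22A8, an organic anion carrier, stood at 98.1, 73.98 and 189 TPM, and SLC34A1 (ENSDARG00000028824), a phosphate carrier, at 95.7, 70.4 and 132 TPM. pdzk1, a scaffold for such carriers, stood at 210.1, 64.02 and 152 TPM. Of the carriers of distal segments, SLC12A3, the thiazide-sensitive salt carrier, stood at 36.1, 16.1 and 55.9 TPM and SLC12A1 at 29.4, 25.5 and 41.95 TPM. Both lay below SLC5A12, SLC22A8, pdzk1 and SLC34A1 (ENSDARG00000028824) in every pool. But another copy of SLC34A1 (ENSDARG00000054658) lay below both, at 16.01, 5.27 and 14.3 TPM, so no order of segments can be read. Of the receptors for filtered protein, LRP2 (ENSDARG00000102506) stood at 8.51, 6.67 and 16.7 TPM and CUBN at 12.1, 6.47 and 15.5 TPM. umod, uromodulin, was at or near 0, at 0, 0 and 0.109 TPM.

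A few tubule genes stood out in 1 pool. Of the sulfate carriers, SLC13A1 stood at 17.3, 4.899 and 105 TPM and SLC26A1 at 33.99, 24.6 and 144 TPM, both high in pool 3. SLC20A1 (ENSDARG00000020114), a phosphate carrier, stood at 265, 21.9 and 30.6 TPM, high in pool 1 with the liver transcripts, whose part in it was not tested. Glomerulus genes held 0.0211%, 0.0144% and 0.0203% of TPM. NPHS1, the slit protein nephrin of podocytes, stood at 2.31, 1.54 and 3.73 TPM, and podxl, podocalyxin, at 18.4, 13.6 and 21.6 TPM. WT1 (ENSDARG00000031420), a podocyte regulator, stood at 6.53, 3.26 and 5.77 TPM. These podocyte genes were thus detected in every pool, each below SLC5A12, SLC22A8 and SLC34A1 (ENSDARG00000028824) of the tubule.

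Most interrenal genes were low in every pool. Their list held 0.0154%, 0.0294% and 0.0156% of TPM, but fdx1, a ferredoxin found in many tissues, was 60.1% of it, and without fdx1 it held 0.00110%, 0.0172% and 0.00578%. CYP11A1 (ENSDARG00000002347), which starts steroid synthesis, stood at 0.968, 107 and 30.6 TPM and CYP17A1 at 0.328, 20.9 and 4.88 TPM. Both followed the egg genes, high in pool 2 and lower in pool 3. STAR stood at 1.33, 1.04 and 0.371 TPM, cyp11c1, the cortisol enzyme, at 0.153, 0.108 and 0.134 TPM and mc2r, the ACTH receptor that defines interrenal cells, at 0.0237, 0.677 and 0.223 TPM. The ovary also uses CYP11A1 and CYP17A1, and the part of egg or ovary RNA in these 2 genes was not tested. The chromaffin genes TH, DBH and pnmt, which make adrenaline, summed to 3.81, 1.80 and 4.93 TPM. hsd3b2, at 0.548, 20.7 and 8.61 TPM, and fdx1b, at 0.752, 6.40 and 2.66 TPM, were highest in pool 2 like CYP11A1. The part of egg or ovary RNA in them was not tested either. STAR and cyp11c1 were highest in pool 1, but near or under the threshold, where the order of pools is uncertain.

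Vessel, stroma, muscle, gut and fat genes were minor. Endothelial genes held 0.0398%, 0.0277% and 0.0491%, led by plvapb at 94.2, 64.4 and 93.9 TPM and plvapa at 71.4, 55.4 and 101 TPM, proteins of fenestrated vessels. kdrl, a VEGF receptor, stood at 19.5, 9.56 and 17.6 TPM. Stroma genes held 0.0978%, 0.0671% and 0.120%, of which CXCL12 (ENSDARG00000037116), the chemokine that holds blood stem cells in their niche, was 56.7% on average, at 527, 373 and 713 TPM. Skeletal muscle genes held 0.0272%, 0.0205% and 0.0219%, with parvalbumins such as pvalb4 at 49.3, 18.3 and 18.2 TPM and each of the fast myosin genes myhz1.1, myhz1.2, myhz1.3 and myhz2 under 0.15 TPM. Pancreas and gut genes held 0.0327%, 0.0527% and 0.0517%, lowest in pool 1, with the trypsin gene prss1 at 17.2, 72.5 and 51.3 TPM. Fat genes held 0.0623%, 0.0502% and 0.0621%, of which cfd was 55.1% on average. Without cfd the mean share of the fat list was 0.0262%, against 0.0582% with it. Only 4 of its 12 genes were detected in all pools, and plin1, which coats fat droplets, stood at 0.0222, 0.715 and 0.140 TPM.

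Egg transcripts were high in pool 2 and, at a lower level, in pool 3. zp2.1, of the zona pellucida proteins that make the egg coat, stood at 82.9, 4874 and 1447 TPM. The 19 zona pellucida genes summed to 402, 24838 and 7012 TPM. ZAR1, an oocyte factor of the egg-to-embryo change, stood at 8.457, 669 and 146 TPM, and buc, the organizer of the germ plasm body of the oocyte, at 5.28, 285 and 105 TPM. The germ cell helicase DDX4 stood at 0.707, 31.4 and 13.1 TPM. Pool 1 held the same genes at low levels. Of 29 egg genes detected in all pools, 26 were highest in pool 2, against 44.1% of all genes. The ratio of zp2.3 to zp2.1 was 0.515, 0.546 and 0.522 in pools 1, 2 and 3. The testis genes dmrt1, amh and gsdf summed to 1.097, 6.42 and 3.05 TPM, gsdf being also an ovary gene, and TSSK6, of late sperm cells, was listed at 0 in all pools.

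Liver transcripts were high in pool 1 alone. fabp10a, the fatty acid binding protein of fish liver, stood at 7167, 150.5 and 99.1 TPM. The apolipoprotein gene apoa2 stood at 6374, 31.2 and 6.77 TPM and tfa, transferrin, at 2512, 36.7 and 26.4 TPM. Of the fibrinogen chains, fga stood at 247, 1.35 and 0.674 TPM, FGB at 374, 4.97 and 13.1 TPM and FGG at 365, 2.33 and 0.424 TPM. The yolk protein genes, 7 of the 27 on the list, went the other way, with vtg1 at 1.35, 201.3 and 83.04 TPM. Without vitellogenins the liver list held 2.42%, 0.0504% and 0.0377%. RBP4, a retinol carrier, varied less, at 322, 208 and 187 TPM. The ratio of fabp10a to apoa2 was 1.12, 4.83 and 14.6, so the low liver-list signal of pools 2 and 3 had other proportions than that of pool 1.

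**Figure D5:**
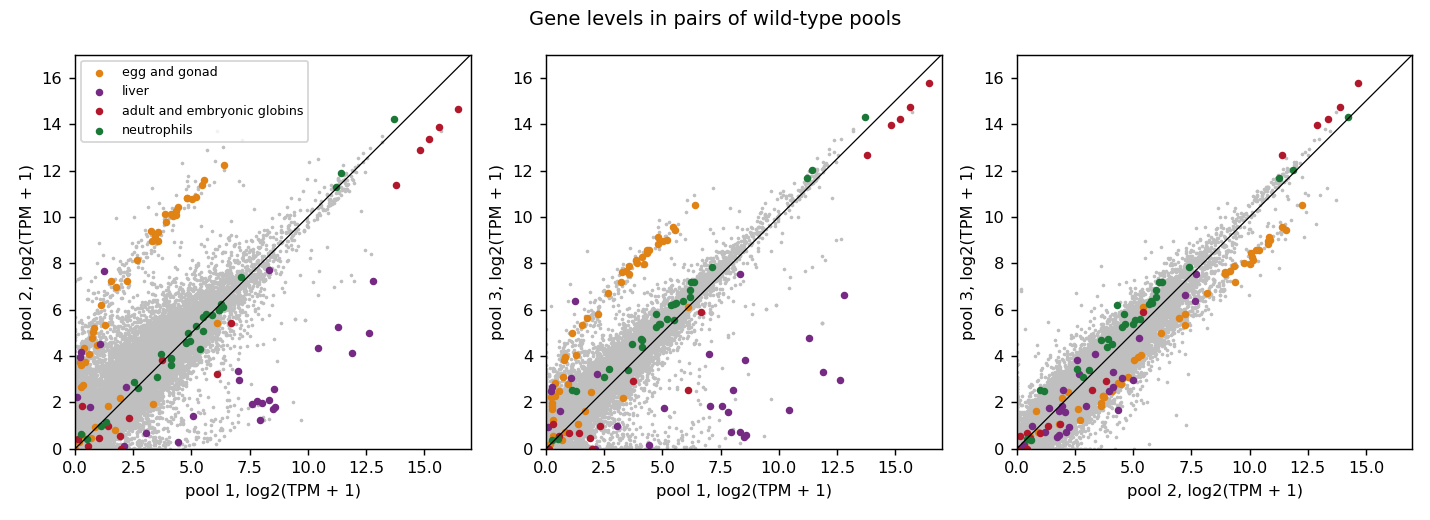
Levels of all genes, as log2(TPM + 1), in each pair of wild-type pools, with egg, liver, globin and neutrophil list genes coloured. Neutrophil genes lie near the line of equal levels, egg genes lie above it where pool 1 is on the horizontal axis, and most liver genes lie below it there; Pearson r over 18903 genes is 0.792 for pools 1 and 2, 0.896 for 1 and 3 and 0.927 for 2 and 3.

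Many genes on no list also differed widely between pools. Among genes with a mean of at least 1 TPM, 1131 were at least 10 times higher in pool 2 than in pool 1, and held 0.359%, 19.7% and 5.06% of TPM. Of them, 38 were on the egg list and 1075 on no list. Of the 1131, 1091 were higher in pool 3 than in pool 1, which the choice of genes low in pool 1 favours. Among the 14681 genes detected in all pools, 8290 were lowest in pool 1. tmsb5, a beta thymosin, which binds actin, led the 1131 at 66.4, 13491 and 1672 TPM. npm2b, a chromatin protein of the egg, stood at 8.67, 589 and 219.6 TPM. 225 genes were at least 10 times higher in pool 1 than in both other pools, and held 7.30%, 0.207% and 0.288%. Of these, 17 were on the liver list and held 2.38% of the TPM of pool 1, while 45 on no list and with no gene-like symbol held 4.23%. The highest of the latter was si:dkey-153m14.1, at 6625, 341 and 523 TPM, and zgc:158463, annotated by RefSeq as ribosomal RNA, stood at 4007, 148 and 281 TPM. Among those with a gene-like symbol, hpxa, hemopexin, stood at 321, 1.42 and 0.190 TPM, and f2, prothrombin, at 95.5, 3.24 and 7.78 TPM.

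By the same rule, 10 times both other pools, 89 genes were high in pool 2 and 34 in pool 3. The 34 included copies of 5S ribosomal RNA listed at 0 in the other pools. The chemokine ccl19a.1 was the highest of the 34, at 47.3, 43.99 and 497 TPM. Just under that fold, cxcl18b, a chemokine that draws neutrophils in zebrafish, stood at 7.44, 5.79 and 72.2 TPM and, further under it, ifi27.2, of an interferon-induced family, at 24.5, 9.81 and 96.1 TPM. Pool 3 was highest in all of these, as it was in MPEG1 (ENSDARG00000043093). These sets were picked by their difference between pools, so the difference is how they were chosen and no finding.

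Over all genes, the pools were alike to different degrees. Pearson r across 18903 genes, which are not independent replicates, was 0.792 for pools 1 and 2, 0.896 for pools 1 and 3 and 0.927 for pools 2 and 3, on log2(TPM + 1). Without egg, liver, globin and pool-high genes the values were 0.893, 0.957 and 0.941, where a rise is fixed by the removal of genes chosen for their difference between pools 1 and 2, or between pool 1 and both others. Between pools 1 and 2, 68.4% of the 14681 genes lay within 2-fold, against 84.9% for pools 1 and 3 and 82.98% for pools 2 and 3. Over all genes, pools 1 and 2 were the least alike by r and by the share within 2-fold. Over the same 14681 genes the median CV was 28.8%. It was 26.2% for genes of 1 to 3 TPM and 30.3% for genes of 100 to 1000 TPM. These genes reached 1 TPM in all 3 pools, which limits the spread of the low ones, so no trend with level can be read.

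Some genes were nearly level in TPM as deposited. Among 3845 genes with a mean of at least 20 TPM and a gene-like symbol, the lowest CV was that of hnrnph1l, an RNA-binding protein gene, at 44.2, 44.4 and 44.4 TPM. RPS12, a ribosomal protein gene, stood at 3059, 3050.0 and 3081 TPM, and calm2a, a calmodulin gene, at 42.4, 42.2 and 42.9 TPM. After rescaling by median ratios all 3 were highest in pool 1, hnrnph1l at 50.8, 43.2 and 40.1, RPS12 at 3517.5, 2969 and 2787 and calm2a at 48.8, 41.1 and 38.8. At the other end, the 12 highest CVs were all set by pool 1, with shbg, a steroid carrier of plasma, at 71.4, 0.313 and 0.0339 TPM. apoa2, apoa1b, FGG, serpina1 and fga of the liver list were among those 12. Ribosomal protein genes held 18.6%, 17.2% and 20.9% of TPM and had a median CV of 14.3%, and the mitochondrial genes 3.82%, 4.24% and 5.94% with 24.1%.

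MT-CO2, a cytochrome oxidase subunit encoded in the mitochondrion, stood at 9321, 9752 and 14134 TPM, and MT-ATP6, of its ATP synthase, at 5303, 5293 and 7175 TPM. RPS2 stood at 5968, 5875 and 6456 TPM. The gene si:dkey-151g10.6 (ENSDARG00000092807), which RefSeq lists with the ribosomal protein synonym rpl41, stood at 9403, 11378 and 13157 TPM. Other highly abundant genes were tmsb4x, a beta thymosin, at 4588, 4892 and 6796 TPM, eef1a1l1, a translation factor, at 5607, 3881 and 5286 TPM, actb2, a beta actin, at 3933, 4093 and 4745 TPM and selenop, a selenium carrier, at 3238, 3049.9 and 5956 TPM. si:dkey-238c7.12, annotated by RefSeq as a long non-coding RNA, stood at 4536, 5936 and 7761 TPM. rad21a, the gene that the series is about, stood at 110.1, 73.9 and 108 TPM in these wild-type pools, lowest in pool 2, with a mean of 97.4 ± 20.3 TPM (SD, n = 3).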

How the data were processed

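Total RNA of whole kidney marrow was taken up with a NucleoSpin RNA kit, and an Illumina TruSeq v2 kit served for the libraries, per the labels' protocols. FastQC, HISAT2 2.0.4, featureCounts and genome build GRCz11 are named in the submitters' processing notes. The authors deposited TPM, transcript abundances scaled to a sum of 1e+06 per library, in 1 table for all 6 libraries. The sources used here do not name the annotation, gene lengths, strand setting or treatment of reads with several matches, so overlapping genes and near-identical copies are uncertain. TPM keeps no read depth, so no counting interval is given.

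The 3 wild-type columns were read with pandas 2.3.3 in Python 3.11.15 and drawn with matplotlib 3.10.9. Symbols came from a table that names 28988 of the 32057 identifiers. RefSeq of assembly GRCz12tu, another build, gave synonyms and no coordinates. Of 22 marker lists with 704 names, 573 genes matched, in either case or with a last a or b taken off the listed name, which added fdx1 and GFI1 through copies named otherwise, and a gene counted in the first list that holds it. A list's share is its summed TPM over all TPM. SD and CV are over 3 pools. Correlations are on log2(TPM + 1). The statistics were tested on simulated data.

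Named were the 40 genes with the highest mean, up to 8 of the highest members per list with defining markers at or near 0, and, among genes with a mean of at least 20 TPM, the 12 highest and lowest CVs and 8 genes per pool with the highest ratio to the other pools. Some are given only as counts, some list members are not reported here, and others outside that rule (npm2b, f2, il1b, mki67, TOP2A, CDK1, MCM6, buc, DDX4, itga2b, PAX5, lck, kdrl and the lower members of lists) were chosen after their values were seen. The members and lists were chosen with earlier results of these data known. Alternatives were the detection threshold, name matching, removal of abundant classes, the denominator, the highest member, the pseudocount, rescaling and leaving out each pool. Removal of egg and liver genes, the counting of si:ch211-5k11.8 as a globin, fdx1 left out, lyz left out of the reduced neutrophil list and the order of pools after rescaling were added after the data were seen.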

Additional observations from a re-analysis of the deposited data

How the results depend on the processing

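No paired analysis was possible because only 1 group is described. At a threshold of 5 TPM, 8095 genes were detected in all pools, and leaving out each pool gave 14851 to 15870. Matching by exact spelling gave 3.04% for globins, whose HBE1 copies it misses, 0.154% for macrophages and 0.35% for kidney tubule. As a share of the blood lists, globins were 76.6%, red cell genes 2.01%, neutrophils 17.6%, macrophages 1.83% and B cells 0.251%, a change of denominator. With globin, mitochondrial and egg genes removed, neutrophils were 3.07%, macrophages 0.327% and kidney tubule 0.645%. Without their highest member, neutrophils were 0.732% and kidney tubule 0.192%. The ratio of the highest alpha to the highest beta globin was 0.39, and that with si:ch211-5k11.8 among the alpha globins 0.56, against 0.28. Leaving out each pool moved globins between 9.35% and 17.4%, red cell genes between 0.243% and 0.428%, neutrophils between 2.27% and 2.75%, B cells between 0.0244% and 0.0445%, egg genes between 0.455% and 1.91% and liver genes between 0.063% and 1.25%. Every other alternative run for these results moved them by less than the SD of the pools, or a count by less than 1.5 times. For the lists not named here, 37 values moved by more than that SD and 82 did not. Depth is unknown, so how far counting error sets the values near 1 TPM cannot be said.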

Other observations

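Several abundant genes carried only a clone-style symbol. In pool 2, si:ch211-226h8.14 stood at 8259 TPM and si:ch73-132k15.2 at 7475 TPM, against 80.8 and 50.4 TPM in pool 1. Both were high in the pool with the most egg transcripts. In pool 1, si:dkey-153m14.1 stood at 6625 TPM and si:dkeyp-3b12.11 at 5589 TPM, against 341 and 375 TPM in pool 2. Identifiers with clone-style symbols held 12.4%, 16.8% and 10.7% of the TPM of pools 1, 2 and 3.

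In 32 sets with 77 identifiers in all, the identifiers of a set had the same value as each other in every pool. These identifiers held 1.45%, 0.0355% and 0.0494% of TPM. The set with the highest values was 3 identifiers, si:dkey-77p23.8 and 2 without a symbol, each at 3709, 16.5 and 41.7 TPM. Whether such a set is 1 gene listed more than once was not tested, and each identifier counts in the totals.

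Some genes used as references for tissue comparison were not level. GAPDH (ENSDARG00000043457), an enzyme of glycolysis, stood at 1377, 5766 and 1975 TPM in pools 1, 2 and 3, highest in the pool with the most egg transcripts, while actb2 stood at 3933, 4093 and 4745 TPM. After rescaling by median ratios GAPDH stood at 1583, 5613 and 1786 and actb2 at 4522, 3984 and 4292.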
